A study of Mus musculus with 75 samples.

Results

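The 10 genes described here encode 3 cytokines of the interleukin-6 (IL-6) family (Il6, Lif and Il11), the 3 colony-stimulating factors of the myeloid lineages (Csf1, Csf2 and Csf3) and 4 members of the suppressor of cytokine signalling (SOCS) family (Socs1, Socs2, Socs3 and Cish). The set is defined by gene symbol, and all 10 were found among the 21051 symbols of one deposited count table and among the 21076 symbols of the other. The study measured gene expression by RNA-seq in enteric glial cells, the glia of the nervous system of the gut wall, in 75 libraries from mice of both sexes. The cells were labelled enteric glia of mice that carry an eGFP reporter transgene. Ages are not given in the sources used here.

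All groups carried the eGFP transgene. The untreated libraries came from such mice without injection, with 5 from the colonic and 6 from the small intestinal myenteric plexus (the nerve layer between the muscle coats), and 5 and 6 from the submucosal plexus of the same regions. At 2 h after injection, mice with the transgene alone had received lipopolysaccharide (LPS, the endotoxin of Gram-negative bacteria, here from E. coli O111:B4) at 2 mg/kg into the peritoneum or phosphate-buffered saline (PBS), with 4 libraries of the myenteric plexus per treatment and region. At 24 h, the same injections were given to 22 mice of the genotypes Gpr37WT and Gpr37-/-, both with the transgene, called wild type and knockout below. The product of Gpr37 is a G protein-coupled receptor found in glia. The wild-type libraries numbered 6 with PBS and 4 with LPS in the small intestine, and 4 with PBS and 5 with LPS in the colon. The knockout libraries numbered 4 with PBS and 5 with LPS in the small intestine, and 5 with PBS and 4 with LPS in the colon. All 24 h libraries were of the myenteric plexus.

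Cytokines of the IL-6 family bind receptor complexes that hold gp130 (Il6st), which activate JAK kinases and mainly the transcription factor STAT3. Colony-stimulating factors control the production and survival of myeloid cells: Csf1 (M-CSF) acts on macrophages, Csf2 (GM-CSF) on granulocytes and macrophages, and Csf3 (G-CSF) on neutrophils. SOCS proteins are induced by JAK-STAT signalling and feed back on it, with Socs3 acting on gp130 receptors, Socs1 mainly on interferon receptors, and Socs2 and Cish on receptors that use STAT5. In the muscle layer of the gut, Csf1 is known as a survival factor of resident macrophages.

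On the GRCm38 build, GENCODE places Il6 at chr5:30013114-30019981 (plus strand), Lif at chr11:4257557-4272514 (plus), Il11 at chr7:4772373-4782859 (minus), Csf1 at chr3:107741048-107760469 (minus), Csf2 at chr11:54247271-54249667 (minus) and Csf3 at chr11:98701263-98703629 (plus). The SOCS genes lie at chr16:10782240-10785536 (Socs1, minus), chr10:95385362-95417180 (Socs2, minus), chr11:117966079-117970047 (Socs3, minus) and chr9:107296026-107302784 (Cish, plus). Each is annotated as protein coding. The windows around the RefSeq transcription starts of Il6, Csf1, Socs3 and Cish are printed below because these genes rose together after LPS in the small intestine at 2 h and each window holds a match to a pattern of NF-kB or STAT proteins, which act downstream of LPS and cytokine receptors. Sequences run 5′ to 3′ on the strand of the gene, and capitals mark the matches.
Il6, upstream bases at chr5:30012864-30013113 (GRCm38.p6, plus strand): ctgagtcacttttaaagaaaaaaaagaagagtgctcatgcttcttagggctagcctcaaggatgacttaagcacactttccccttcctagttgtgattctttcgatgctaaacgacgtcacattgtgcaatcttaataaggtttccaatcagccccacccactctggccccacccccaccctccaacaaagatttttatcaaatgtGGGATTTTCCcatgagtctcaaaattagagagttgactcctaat
Csf1, upstream bases at chr3:107760470-107760719 (GRCm38.p6, minus strand): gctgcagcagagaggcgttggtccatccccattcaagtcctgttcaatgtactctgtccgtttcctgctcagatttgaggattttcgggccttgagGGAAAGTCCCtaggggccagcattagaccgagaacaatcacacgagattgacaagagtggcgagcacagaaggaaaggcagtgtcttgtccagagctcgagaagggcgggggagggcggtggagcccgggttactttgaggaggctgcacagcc
Socs3, upstream bases at chr11:117969452-117969616 (GRCm38.p6, minus strand): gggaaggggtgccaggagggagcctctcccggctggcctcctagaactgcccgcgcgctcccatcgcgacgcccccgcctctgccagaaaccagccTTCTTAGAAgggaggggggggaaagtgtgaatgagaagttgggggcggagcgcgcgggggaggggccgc
Cish, bases across the start at chr9:107296654-107296683 (GRCm38.p6, plus strand): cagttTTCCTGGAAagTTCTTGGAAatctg

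Positions were counted from the RefSeq transcription start, with negative numbers upstream. For Socs3 and Cish, GENCODE starts the gene further upstream than RefSeq, so both windows lie inside the GENCODE spans given above. Of the 250 bases before the RefSeq start, GENCODE marks 77 as exon in Socs3 and all 250 in Cish. The longer NF-kB pattern (GGG, any 2 bases, TTTCC) matched at -44 to -35 in Il6, and its reverse complement matched at -154 to -145 in Csf1. The STAT pattern TTCNNNGAA matched at -154 to -146 in Socs3, and in Cish at 1 to 9 and again at 12 to 20. Windows of 300 bases were searched on both strands. Of 32851 such windows over all genes, 8.3% held TTCNNNGAA, 1.63% held the longer NF-kB pattern, 5.82% held the shorter pattern GGGNNTTCC and 7% held either NF-kB pattern. Among the 10 genes, 8 had a RefSeq window, and those of Lif, Il11, Csf2 and Socs1 held no match. Csf3 and Socs2 had no window here. A match describes letters in a window and was not measured as binding.

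**Figure D1:**
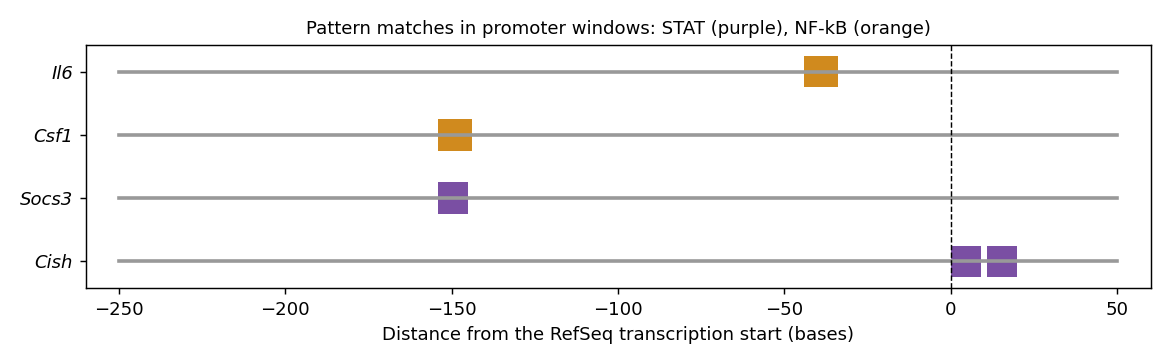
Map of pattern matches in the RefSeq promoter windows of Il6, Csf1, Socs3 and Cish, with 1 line per window. The horizontal axis gives the distance from the transcription start in bases. The windows of Lif, Il11, Csf2 and Socs1, which held no match, are not drawn. The Il6 and Csf1 windows carry an NF-kB pattern match upstream of the start, the Socs3 window a STAT match at -154 to -146, and the Cish window its STAT matches just after the start.

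Library totals ranged from 1990744 to 7883251 counts at 2 h, from 2882539 to 33283346 at 24 h and from 2547296 to 9002546 in the untreated libraries. Levels are given in CPM, the share of a library's counts scaled up to a fixed total after TMM normalization, and 3 counts corresponded to 0.359 to 1.46 CPM at 2 h and to 0.0933 to 1.09 CPM at 24 h. The glial genes Sox10 and S100b were detected in every library of both LPS experiments, whereas Fabp7 and Cdh19 of the same list each held none in 1 wild-type colon library with LPS at 24 h, and in the colon at 2 h the 5 smooth muscle markers summed to 17563 to 65112 CPM with PBS. In bulk RNA of this kind, fewer cells of a type and less RNA per cell cannot be told apart. In the check of the targeted gene, 17 of 18 knockout libraries held at most 3 Gpr37 counts, but so did 4 of 19 libraries labelled wild type, all from LPS-treated mice: both of mouse 3, and the colon libraries of mouse 5 and mouse 8. Mice numbered 10 and below had mitochondrial shares of 4.24 to 26.0% (12 libraries), against 1.66 to 10.4% for mice numbered 11 and above (25 libraries). Csf1, Csf3 and Socs2, the genes called at 24 h, are therefore also given for mice numbered 11 and above alone, which leaves those 4 libraries out. The LPS mice of that subset are wild-type mice 13 and 16 and knockout mice 11, 17 and 21, so its calls rest on few libraries.

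Without injection, Socs3, Csf1, Socs2, Cish and Socs1 were detected and the cytokines other than Csf1 were at or near 0. In the myenteric plexus Socs3 stood at 140 ± 46.6 CPM in the colon (SD, n = 5) and 163 ± 91.6 CPM in the small intestine (SD, n = 6). Csf1 stood at 47.6 ± 15.5 and 47.6 ± 20.7 CPM, and Socs2 at 37.8 ± 15.1 and 25.5 ± 3.72 CPM. Divided by exonic length, which allows levels of different genes to be set side by side, the order in the small intestine was Socs3 (56.5 CPM per kb), Csf1 (9.02), Socs2 (2.68), Cish (1.86) and Socs1 (0.986). Cish overlapped both of its neighbours in that order within 1 SD, while Socs3 lay above the rest. Csf3 held no count in any of the 22 untreated libraries, Lif none in the small intestinal myenteric plexus, and mean Il6 did not exceed 1.70 CPM in any untreated group.

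The SOCS genes Cish and Socs1 had higher untreated values in the submucosal than in the myenteric plexus of the colon. Cish stood at 30.7 ± 11.2 CPM against 9.35 ± 2.22 CPM (SD, n = 5 each), and Socs1 at 14.5 ± 7.07 CPM against 3.72 ± 1.38 CPM. The summed leukocyte markers (4 genes) ranged from 64.0 to 2459 CPM in the submucosal and from 26.3 to 156 CPM in the myenteric libraries of the colon. These layer differences are given as values, and the part of leukocyte RNA in them was not tested.

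The 2 h libraries addressed how glia of each region respond early to a systemic endotoxin. In the small intestine, LPS raised 6 of the 9 genes that could be tested: Il6, Csf1, Csf3, Socs2, Socs3 and Cish. Of all 13107 genes tested, 1.08% were called higher in that comparison. The colon gave 5 calls (Il6, Csf1, Csf3, Socs2 and Socs3) where 0.740% of all genes were called higher. The median log2 fold change of the 9 genes was 4.71 in the small intestine and 3.22 for the colon, or 4.42 and 2.90 with genes at 0 in a group set to their lower bound, against -0.02 and -0.00 over all genes. All tests were two-sided edgeR quasi-likelihood tests, adjusted by Benjamini-Hochberg over all genes of the experiment.

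Il6, the founding cytokine of its family and a classical early product of endotoxin exposure, was close to 0 with PBS. In the small intestine the PBS libraries 1 to 4 held 0.884, 0, 0.602 and 3.71 CPM, and the LPS libraries 185, 96.7, 198 and 161 CPM. The groups lay far apart, at a log2 fold change of 6.66 ± 0.71 (SE), or 101-fold (edgeR adjusted p = 5.38e-05). Without PBS replicate 4, the library with 3.71 CPM, it was 8.04 (edgeR adjusted p = 7.89e-05). In the colon, 1 PBS library held 1.02 CPM and the other 3 held none, while the LPS libraries held 271, 382, 332 and 397 CPM. The 3 Il6 counts of all colon PBS libraries against 5362 with LPS gave a ratio of 1680, with a 95% interval for counting error alone of 574 to 8147 (edgeR adjusted p = 1.43e-05). Every LPS value of the colon exceeded every LPS value of the small intestine, with means of 346 ± 56.6 and 160 ± 45 CPM (SD, n = 4 each). The same LPS libraries also differed in other markers. Summed smooth muscle markers were 17153 to 54611 CPM in the colon and 1149 to 16850 CPM in the small intestine. Neuron markers went the other way, at 208 to 1300 CPM and 1474 to 2461 CPM. Glial markers overlapped, at 2994 to 8687 CPM and 4839 to 9275 CPM. The part of non-glial RNA in the Il6 gap was not tested. The region by treatment term for Il6 was 3.84 ± 1.11 (SE) on the log2 scale, with an unadjusted p of 0.00304 in edgeR that did not pass adjustment over all genes (adjusted p = 1.00). No region by treatment term of the 9 genes was called at 2 h by edgeR (2 with an unadjusted p below 0.05) or by DESeq2. Of all 13107 genes edgeR called none for this term, and 3.45% had an unadjusted p below 0.05. Since the Il6 term rests on 3 counts in the colon PBS libraries, its size is loosely determined. With 1 library of any of the 4 groups left out, the term ran from 2.45 to 7.08.

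Lif, a gp130 cytokine that acts on neurons, glia and stem cells, stayed low. Its LPS libraries in the small intestine held 15.6, 18.7, 13.5 and 7.81 CPM, against 1.99 CPM in 1 PBS library and 0 in the other 3. These groups did not overlap, but the difference of 4.71 ± 1.84 (log2, SE) missed the threshold (edgeR adjusted p = 0.660), and its size rests on the 1 PBS library with counts, without which that group is at 0. In the colon the PBS libraries held no Lif count and the LPS libraries 6.24, 1.80, 10.7 and 0 CPM (edgeR adjusted p = 0.294). Il11, the cytokine of the family linked to stromal and epithelial repair, held counts in 1 of the 16 libraries, at 2.46 CPM with LPS in the colon, and was not tested.

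Csf1, the macrophage growth factor, rose in both regions from a clear resting level. With PBS in the small intestine its libraries held 8.84, 39.0, 50 and 31.6 CPM, and with LPS 184, 219, 348 and 219 CPM. The rise was 2.91 ± 0.49 on the log2 scale (edgeR adjusted p = 0.00339). In the colon, values went from 15.4, 31.3, 36.7 and 64.3 CPM to 121, 174, 278 and 157 CPM, a rise of 2.30 ± 0.48 (edgeR adjusted p = 0.0293). Every LPS library lay above every PBS library of its region.

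Csf3, the neutrophil growth factor, held no count in any of the 8 PBS libraries and was present in all 8 LPS libraries. The LPS values were 45.4, 2.01, 70.1 and 47.7 CPM in the small intestine and 27.4, 443, 98.2 and 7.21 CPM in the colon, a wide spread within each region. Against a floor of 3 counts per PBS library, Csf3 was at least 53.5-fold higher with LPS in the small intestine (edgeR adjusted p = 0.0450) and at least 169-fold higher in the colon (edgeR adjusted p = 0.0293). Without LPS replicate 2, the library with 443 CPM, the colon bound was 51.9-fold. Both calls lay near the threshold. With sex as a covariate the adjusted p was 0.0774 for the small intestine and 0.0578 for the colon.

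Csf2, which acts on granulocytes and macrophages, showed counts mainly in the LPS libraries of the small intestine, at 2.46, 36.2, 23.3 and 4.37 CPM, with none in the PBS libraries there. That was at least 21.5-fold higher (13.0-fold without LPS replicate 2), but the test did not pass (edgeR adjusted p = 0.132). In the colon, 1 LPS library held 4 counts and 1 PBS library 3, and no fold is given. The Csf2 region by treatment term had an unadjusted p of 0.00985 and an adjusted p of 1.00 in edgeR. Among the 3 factors, the level per exonic length after LPS in the colon was highest for Csf3 (102 CPM per kb), followed by Csf1 (34.5 CPM per kb), but without LPS replicate 2 Csf3 averaged 31.3 CPM per kb, so that order rests on 1 library. The same order in the small intestine was Csf1 (45.9 CPM per kb), Csf3 (29.2) and Csf2 (20.7), with SDs that overlap between neighbours.

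**Figure D2:**
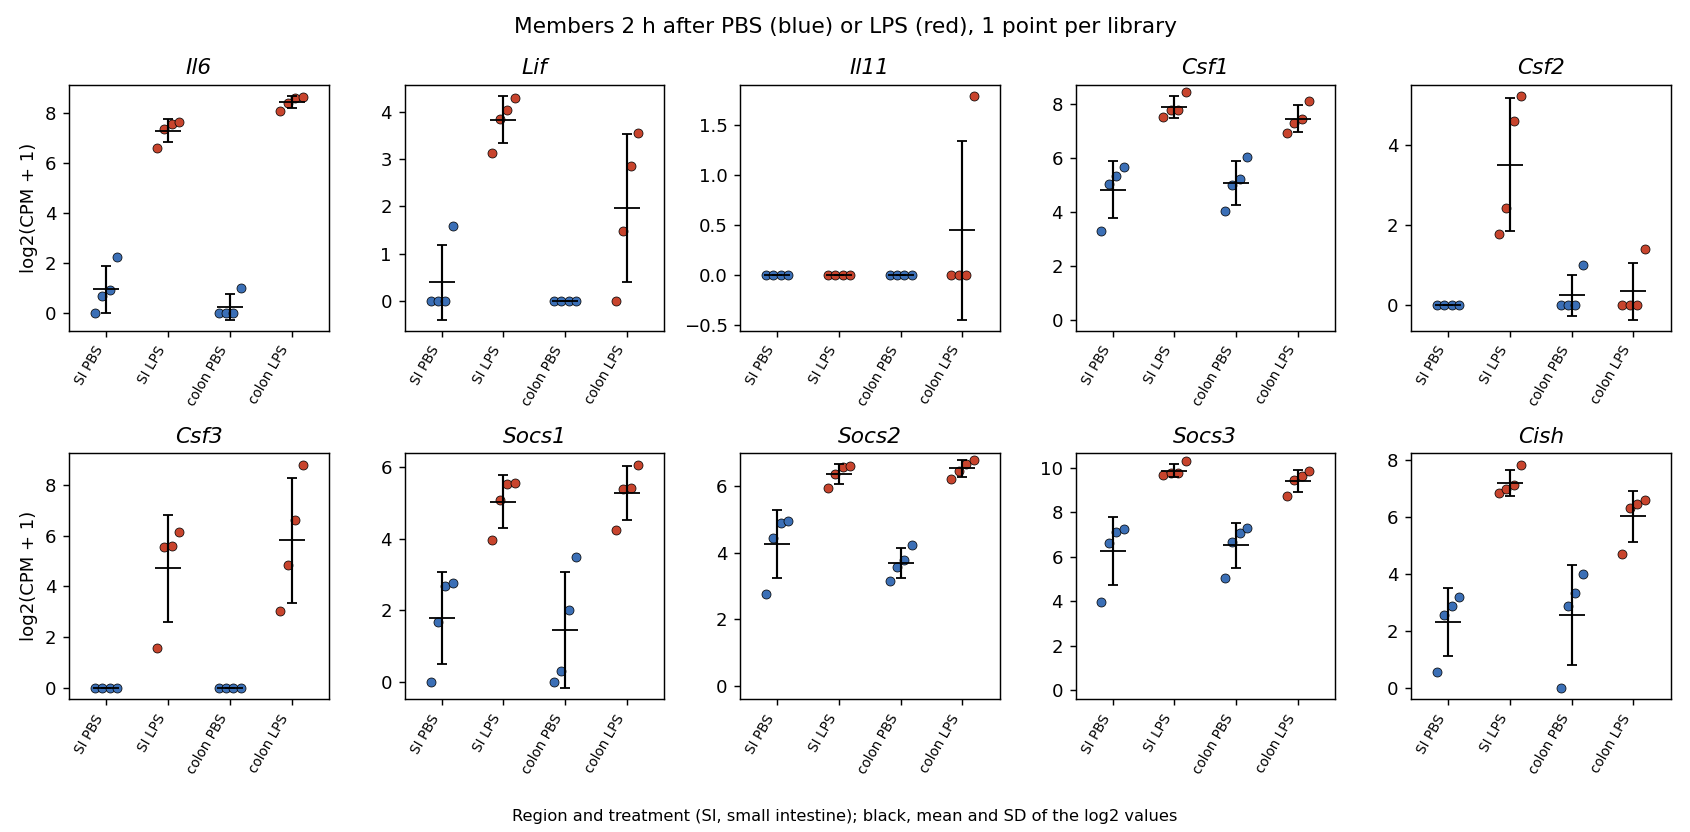
CPM of the 10 genes at 2 h in each library (points), by treatment and region, on a log2 scale with an offset for values of 0. Bars give the mean and SD of the log2 values, and each panel has a separate vertical axis. Il6 sits at 271 to 397 CPM in the colon and at 96.7 to 198 CPM in the small intestine after LPS, and Csf3 has points above 0 in the LPS groups and none in the PBS groups.

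Of the SOCS genes, Socs3, the brake on gp130 receptors, was the most abundant before and after LPS. Its PBS libraries in the small intestine held 14.8, 97.5, 151 and 136 CPM and its LPS libraries 859, 862, 1278 and 806 CPM. The rise was 3.25 ± 0.57 on the log2 scale (edgeR adjusted p = 0.00459). In the colon the values went from 32.0, 156, 133 and 101 CPM to 417, 931, 778 and 702 CPM, a rise of 2.75 ± 0.56 (edgeR adjusted p = 0.0245). The Socs3 groups did not overlap in either region.

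Socs2, known as a brake on growth hormone signalling, rose by 2.90 ± 0.44 in the colon (log2, SE; edgeR adjusted p = 0.00220), from 12.8, 18, 11.0 and 7.81 CPM to 86.7, 74.2, 109 and 101 CPM. Small intestinal Socs2 rose by 1.95 ± 0.42 (edgeR adjusted p = 0.0252), from 20.8, 5.85, 29.9 and 28.5 CPM to 60.3, 94.3, 81.4 and 95.6 CPM. The region by treatment term for Socs2 was 0.95 ± 0.58 (edgeR, unadjusted p = 0.118), so a difference between the regions was not shown. Cish, the SOCS member induced through STAT5, rose in the small intestine by 4.86 ± 0.86 (edgeR adjusted p = 0.00504), from 6.41, 0.487, 8.23 and 4.91 CPM to 126, 228, 113 and 138 CPM. In the colon Cish values of 14.9, 0, 6.34 and 9.19 CPM with PBS stood against 96.3, 88.0, 78.9 and 24.9 CPM with LPS. Those groups did not overlap, but the difference of 3.22 ± 0.80 missed the threshold (edgeR adjusted p = 0.10).

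Socs1, the brake on interferon and other cytokine receptors, had LPS and PBS groups that did not overlap but missed the threshold in both regions. Small intestinal libraries held 2.21, 0, 5.82 and 5.39 CPM with PBS and 14.7, 46.0, 33.2 and 45 CPM with LPS, a difference of 3.32 ± 1.13 (log2, SE; edgeR adjusted p = 0.40). In the colon the values were 0.233, 0, 3.00 and 10.3 CPM against 17.8, 40.9, 41.9 and 66.3 CPM, a difference of 3.59 ± 1.15 (edgeR adjusted p = 0.315), or 5.28 without PBS replicate 4 (adjusted p = 0.111). DESeq2 placed Socs1 past the threshold in both regions, with adjusted p values of 0.0393 and 0.0179. That tool also called Csf2 in the small intestine (adjusted p = 0.0105) and Lif and Cish in the colon (adjusted p = 0.0473 and 0.000934). How many of all genes DESeq2 called in these comparisons is not given here.

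Several 2 h calls rested on few libraries. When each library was left out in turn, Il6 in both regions, Socs2 in the colon, and Csf1, Socs3 and Cish in the small intestine kept an adjusted p below the threshold in all 8 edgeR fits. In the small intestine, Csf3 kept its call in 1 of 8, the fit without LPS replicate 2 (adjusted p = 0.0231), and Socs2 in 4 of 8, losing it without PBS replicate 1 or without LPS replicate 2, 3 or 4 (adjusted p up to 0.101). In the colon, Csf1 lost its call without PBS replicate 1, 2 or 3 or LPS replicate 2 or 3 (adjusted p up to 0.110). Csf3 there lost its call without any PBS replicate or without LPS replicate 3 (up to 0.0892), and Socs3 without PBS replicate 1, 3 or 4 or LPS replicate 2 or 3 (up to 0.0943). Fitted on the colon libraries alone, Csf1 and Csf3 had adjusted p values of 0.0601 and 0.0817, and Socs2 had 0.0939 in a fit of the small intestinal libraries alone. Summed macrophage markers (8 genes) overlapped between the treatments, at 271 to 1481 CPM with LPS and 351 to 2085 CPM with PBS in the small intestine, and at 243 to 676 CPM with LPS and 349 to 1773 CPM with PBS in the colon. In the colon their median log2 fold change was -1.11 and Cx3cr1 did not overlap (0.223 to 27.4 CPM with LPS, 38.0 to 127 CPM with PBS; edgeR unadjusted p = 0.0368, adjusted p = 0.599). The part of macrophage RNA in the colon values, Csf1 included, was not tested. None of the 2 neutrophil markers that could be tested was called in edgeR, and Ngp held no count in any of the 16 libraries, whereas summed neutrophil markers reached 158 CPM in LPS replicate 1 of the small intestine.

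Of the other genes of the pathway, some that respond to STAT3 rose at 2 h, while ligands, receptors and kinases gave no call. From a list of 12 STAT3-responsive genes, the small intestine had 8 higher and the colon 6 (against 1.08% and 0.740% of all genes), with none lower and medians of 2.86 and 2.29 on the log2 scale. Those of the small intestine included Lcn2, an iron-scavenging defence protein (4.97 ± 1.03, adjusted p = 0.0191), Bcl3, a nuclear partner of NF-kB (4.38 ± 0.75, adjusted p = 0.00361), and Junb, a subunit of AP-1 (4.10 ± 0.41, adjusted p = 3.37e-05; all edgeR). Bcl3 rose by 4.68 ± 0.77 and Junb by 3.31 ± 0.40 in the colon (edgeR adjusted p = 0.00431 and 0.000301). Among 12 other brakes on JAK-STAT signalling, the phosphatase genes Ptpn1 (2.04 ± 0.45) and Ptpn2 (2.54 ± 0.36) rose in the small intestine, and Ptpn2 (1.63 ± 0.35) in the colon, and no other SOCS gene did. None of the 5 other IL-6 family ligands, 7 IL-6 family receptor chains, 4 colony-stimulating factor receptors or 10 JAK and STAT genes tested was called in the small intestine by edgeR.

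The genes whose log2 CPM tracked Il6 most closely across the 16 libraries at 2 h were Cxcl2 (Pearson r = 0.967), Gpr84 (0.963) and Birc3 (0.962). For Socs3 they were Csf1 (0.970), Dusp1 (0.962) and Egr1 (0.961), and for Lif Phlda1 (0.895), Nfil3 (0.890) and Tnip3 (0.878). These are descriptions over LPS and PBS libraries of both regions together, so they span the difference between the treatments.

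The 24 h libraries addressed how far the response persisted and whether it differed without Gpr37. In wild-type mice 3 of the 10 genes were called higher in the small intestine (Csf1, Csf3 and Socs2), where 4.18% of all 14903 genes tested were called higher, and 1 in the colon (Csf1), where 3.96% were. In knockout mice edgeR called none of the 10 in the small intestine (0.530% of all genes called higher), where 3 had an unadjusted p below 0.05 (as did 11.5% of all genes) and DESeq2 called 1 (of 527 genes it called in all), and called Csf3 alone in the colon (0.637%). The medians of the 10 genes were 1.46 and 1.5 on the log2 scale in the small intestine and colon of wild-type mice and 0.52 in the small intestine of knockout mice, or 1.41, 1.5 and 0.38 with genes at 0 set to their bound. In the knockout colon, where Csf2 held no count, the median over the other 9 genes was 0.45 with Csf3 at its bound. Over all genes the corresponding medians were -0.13, -0.03, -0.05 and -0.07. The 24 h mice differ from the 2 h mice in genotype labels, count table and fit, and no test was made between the times.

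Other marker genes also moved with LPS in wild-type mice at 24 h. Of 5 fibroblast markers, edgeR called Col1a1 and Col3a1 lower in both regions. Mean Col1a1 was 133 CPM with LPS against 722 CPM with PBS in the small intestine (adjusted p = 0.0365) and 167 against 1515 CPM in the colon (adjusted p = 0.00666). The glial marker Fabp7 was lower in both regions, at 12.8 against 185 CPM in the small intestine (adjusted p = 0.00978) and 12.2 against 77.3 CPM in the colon (adjusted p = 0.0492). Entpd2, another glial marker, was lower in the colon (204 against 569.5 CPM, adjusted p = 0.00564), and the reactive-glia gene Gfap was higher in the small intestine (1288 against 215 CPM, adjusted p = 0.00928). Of 8 macrophage markers Cx3cr1 alone was called, lower in the small intestine (0.0985 against 28.9 CPM, adjusted p = 0.00658), and of 5 endothelial markers Tek alone, lower in the colon (7.65 against 76.8 CPM, adjusted p = 0.0471). Summed macrophage markers overlapped, at 336 to 1349 CPM with LPS and 158 to 1601 CPM with PBS in the small intestine and at 274 to 2102 CPM and 182 to 611 CPM in the colon. Mesothelium sums did not overlap in the small intestine, at 166 to 405 CPM with LPS and 470 to 2282 CPM with PBS. Interstitial cell sums (Kit and Ano1) did not overlap in the colon, at 10.7 to 56.0 CPM and 77.6 to 307 CPM. Each of these sums overlapped in the other region. Epithelial markers summed to 3239 and 4708 CPM in the colon of LPS mice 3 and 8, against at most 259 CPM with PBS. The median mitochondrial share was 8.72% with LPS and 4.79% with PBS in the small intestine, and 9.05% and 5.16% in the colon. In the knockout small intestine the 4 leukocyte markers summed to 88.3 to 727 CPM with LPS and 15.3 to 161 CPM with PBS (median log2 fold change 2.58), and the macrophage markers to 300.4 to 2588 CPM and 57.9 to 569 CPM (median 1.89), with none called in edgeR. The part of these shifts in the values of Csf1, Csf3 and Socs2 was not tested.

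Csf1 rose in both regions of wild-type mice at 24 h. In the small intestine of wild-type mice the PBS libraries ranged from 37.5 to 59.6 CPM (median 50.2), and the LPS libraries of mice 3, 8, 16 and 13 held 133, 195, 151 and 176 CPM. The groups did not overlap, and Csf1 rose by 1.73 ± 0.40 on the log2 scale (edgeR adjusted p = 0.00619). In the colon the PBS libraries of mice 14, 19, 22 and 24 held 67.4, 70.6, 55.9 and 51.9 CPM, against 210, 217, 90.6, 754 and 65.0 CPM in LPS mice 13, 16, 3, 5 and 8. The rise there was 2.12 ± 0.45 (edgeR adjusted p = 0.00391), with mouse 8 inside the PBS range and mouse 5, whose library held no Gpr37 count, far above it. Without mouse 5 the Csf1 rise in the colon was 1.24 (edgeR adjusted p = 0.0225), and in a fit of the colon wild-type libraries alone the adjusted p was 0.104.

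In knockout mice Csf1 values with LPS were 171, 132, 88.7, 49.4 and 184 CPM in the small intestine (mice 11, 17, 10, 6 and 21), against 78.0, 75.1, 49.9 and 52.2 CPM with PBS (mice 12, 15, 20 and 7). The difference of 0.97 ± 0.43 was not called (edgeR adjusted p = 0.363), and mouse 6 lay below the PBS range. In the knockout colon, LPS mice 11, 17, 2 and 21 held 125, 146, 142 and 180 CPM, all above the PBS values of 60.8, 74.4, 57.3, 55.3 and 25.2 CPM (mice 12, 15, 1, 20 and 7). That difference of 1.44 ± 0.42 missed the threshold (edgeR adjusted p = 0.115). Restricted to mice numbered 11 and above, Csf1 passed in the knockout small intestine (1.31, adjusted p = 0.00361) and colon (1.26, adjusted p = 0.00519), besides both wild-type regions (1.72 and 1.82), all in edgeR.

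Csf3 had the largest fitted fold of the 10 genes in the wild-type small intestine. In the wild-type small intestine 5 of 6 PBS libraries held none and mouse 14 held 2.59 CPM, while LPS mice 3, 8, 16 and 13 held 335, 72.7, 302 and 434 CPM. The rise was 9.22 ± 1.80 on the log2 scale (edgeR adjusted p = 0.00142). Its size rests on mouse 14, without which the PBS group is at 0 (edgeR adjusted p = 0.00139). In the wild-type colon the LPS libraries of mice 13, 16, 3, 5 and 8 held 311, 89.6, 46.7, 33.0 and 189 CPM. Of the PBS libraries there, 3 held none and mouse 14 held 32.5 CPM, just below the lowest LPS value. With that library the difference was 4.06 ± 1.65 and was not called (edgeR adjusted p = 0.119), and without it the adjusted p was 0.00493, against a PBS group at 0.

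Knockout mice also had Csf3 counts after LPS, over a wide range. Small intestinal libraries of mice 11, 17, 10, 6 and 21 held 3.94, 74.3, 357, 27.6 and 16.4 CPM, and the PBS mice 12, 15, 20 and 7 held 0, 1.69, 0.0622 and 0 CPM. The groups did not overlap, but the difference of 7.74 ± 2.04 missed the threshold (edgeR adjusted p = 0.0702), and passed without mouse 11 (0.0307). Its size ran from 6.10 without LPS mouse 10 (adjusted p = 0.190) to 10.98 without PBS mouse 15 (adjusted p = 0.0794). In the colon all 5 knockout PBS libraries held 0 and LPS mice 11, 17, 2 and 21 held 8.70, 136, 65.1 and 9.76 CPM, at least 119.7-fold higher (edgeR adjusted p = 0.0231), or 60.8-fold without mouse 17. This call was lost, at adjusted p values up to 0.0680, without mouse 17 or mouse 2 or without any of the PBS libraries, in a fit of the colon knockout libraries alone (0.114), and in mice numbered 11 and above (0.163). In those mice Csf3 kept its call in the wild-type small intestine (9.33, adjusted p = 0.00675) and was not called in the wild-type colon (4.67, adjusted p = 0.114) or the knockout small intestine (5.96, adjusted p = 0.301), all in edgeR.

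Neutrophil markers moved with treatment at 24 h and are given here because Csf3 acts on neutrophils and Csf3r is on that list of 7. Their summed level in the small intestine was 671, 823, 7.41 and 810 CPM in wild-type LPS mice 3, 8, 16 and 13, against at most 3.61 CPM with PBS, and 8.52 to 1730 CPM in knockout LPS mice against at most 0.693 CPM. Colon sums were 66.6, 10.1, 2315, 9.32 and 1958 CPM in wild-type LPS mice 13, 16, 3, 5 and 8, and 2.09 to 489 CPM in knockout LPS mice. Of the 6 neutrophil markers tested, edgeR called 4 higher in the wild-type small intestine, 2 in the wild-type colon and 1 in each knockout region. The PBS colon library of mouse 14, the one with 32.5 CPM of Csf3, had a sum of 144 CPM against at most 1.62 CPM in the other wild-type PBS colon libraries. Knockout PBS mouse 20 had a colon sum of 59.9 CPM, all of it from the single marker Ly6g, and no Csf3 count. High Csf3 also occurred at low marker sums: mouse 16 had 302 CPM of Csf3 beside 7.41 CPM of markers in the small intestine. The part of neutrophil RNA in the Csf3 values was not tested.

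**Figure D3:**
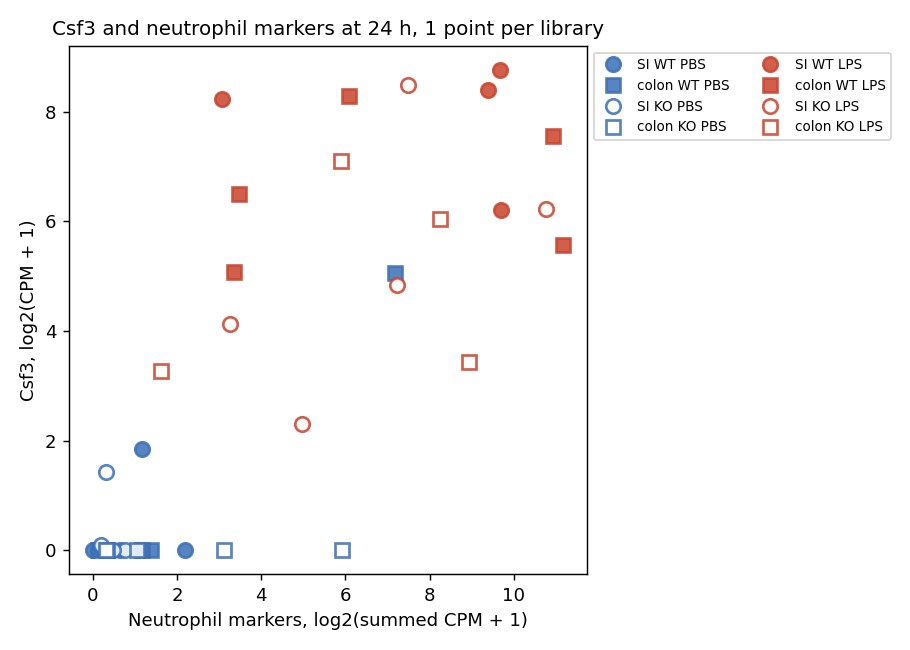
Csf3 level in CPM against the summed CPM of 7 neutrophil markers in the 37 libraries of 24 h (circles small intestine, squares colon, filled wild type, open knockout, blue PBS, red LPS), on logarithmic axes. LPS libraries spread over neutrophil sums from 2.09 to 2315 CPM, and mouse 16 combines 302 CPM of Csf3 with a sum of 7.41 CPM.

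Csf2 was at or near 0 in all 24 h groups. Its highest group was the wild-type LPS colon, at 1.46, 1.44, 0, 4.55 and 0 CPM (mice 13, 16, 3, 5 and 8), with 36 counts in all against 3 with PBS, a ratio of 27.4 with a counting interval of 8.66 to 139 (edgeR adjusted p = 0.130). The mean of that LPS group was 1.49 CPM with mouse 5 and 0.724 CPM without it. The knockout LPS colon held no Csf2 count. Against the floor the knockout was at least 3.07-fold lower than wild type there, or 1.49-fold without mouse 5, which held no Gpr37 count, and the test did not pass (edgeR unadjusted p = 0.00594, adjusted p = 0.154).

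Il6 was called in no comparison at 24 h. Wild-type LPS mice held 4.62, 4.83, 20.5 and 74.4 CPM in the small intestine (mice 3, 8, 16 and 13) and 33.5, 8.87, 0, 4.32 and 7.81 CPM in the colon (mice 13, 16, 3, 5 and 8), with mouse 13 highest in both. PBS libraries reached 34.9 CPM in the small intestine, in mouse 14, so the groups overlapped there. The differences of 1.46 ± 1.26 and 2.64 ± 1.47 were not called (edgeR adjusted p = 0.552 and 0.266). In knockout mice the small intestine gave 4.58, 25.6, 9.30, 2.25 and 9.85 CPM with LPS against 8.42, 26.3, 1.21 and 0 CPM with PBS. In the knockout colon the 4 LPS values of 7.25, 14.2, 11.3 and 5.66 CPM all exceeded the PBS values of 0.728 to 3.61 CPM, at a difference of 2.66 ± 1.40 that was not called (edgeR adjusted p = 0.444).

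Lif in the wild-type colon held 6.92, 8.87, 19.1, 28.2 and 2.53 CPM with LPS, above the PBS range of 0 to 2.16 CPM, and the difference of 3.84 ± 1.81 missed the threshold (edgeR adjusted p = 0.181). In the wild-type small intestine the LPS values were 10.5, 0.73, 0 and 19.8 CPM, with a difference of 3.22 ± 1.53 (edgeR adjusted p = 0.214). Without LPS mouse 13 or PBS mouse 19 that difference was 2.24 or 4.10, and without PBS mouse 19 of the colon the colon difference was 4.72. Knockout colon libraries held 0, 3.38, 17.7 and 0 CPM of Lif with LPS, a difference from PBS of 1.36 ± 1.57 (edgeR adjusted p = 0.789). In the knockout small intestine Lif held 1.19, 5.75, 0, 0 and 0.36 CPM with LPS against 0 to 0.653 CPM with PBS, a difference of 1.94 ± 1.67 (edgeR adjusted p = 0.755). Il11 was at most 2.91 CPM in any 24 h library, the differences with LPS were between -0.25 and 0.45 on the log2 scale, and no comparison called it.

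**Figure D4:**
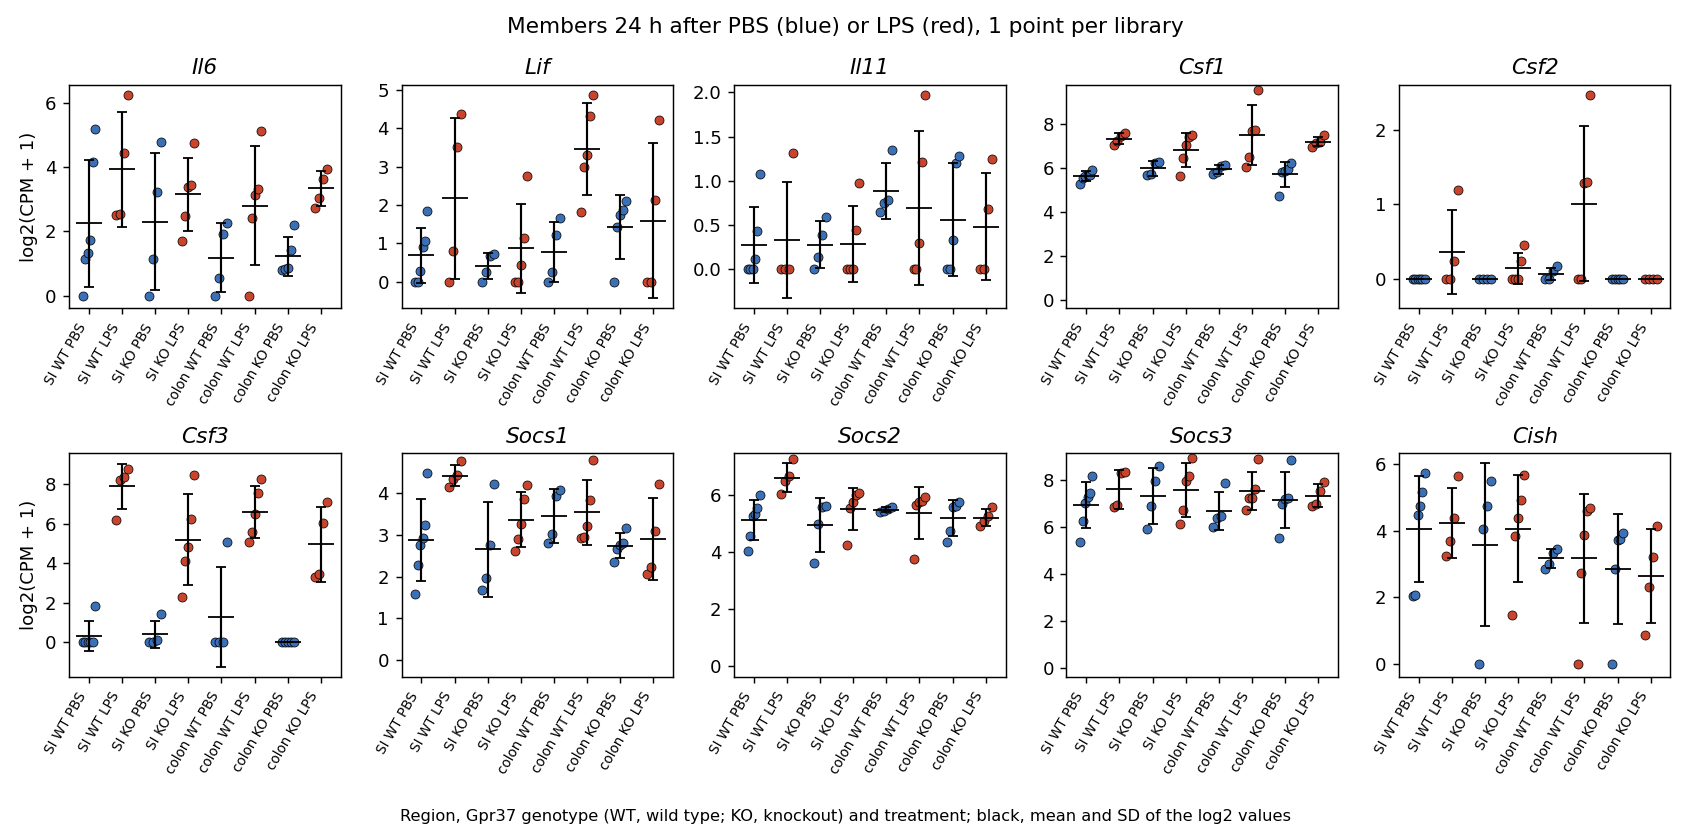
CPM of the 10 genes at 24 h in each library (points), by genotype, treatment and region, on a log2 scale with an offset for values of 0. Bars give the mean and SD of the log2 values, and each panel has a separate vertical axis. Csf1 reaches 754 CPM in the colon of mouse 5, labelled wild type, and Csf3 is at 0 or below 3 CPM in all PBS libraries except the colon library of mouse 14 at 32.5 CPM.

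Among the SOCS genes at 24 h, Socs2 rose in the wild-type small intestine. LPS mice 3, 8, 16 and 13 held 99.3, 153, 89.0 and 64.4 CPM, all above the PBS range of 15.4 to 62.0 CPM (median 38.4), a rise of 1.46 ± 0.40 on the log2 scale (edgeR adjusted p = 0.0218). The call was lost without LPS mouse 8 or PBS mouse 24 or 9 (adjusted p up to 0.110) and in mice numbered 11 and above (1.00, adjusted p = 0.0960). In the wild-type colon Socs2 held 49.1, 59.9, 52.8, 12.3 and 54.0 CPM with LPS and 47.1, 40.8, 44.4 and 42.2 CPM with PBS, a difference of 0.06 ± 0.42 (edgeR adjusted p = 0.950). The region by treatment term for Socs2 in wild-type mice was -1.39 ± 0.58 (edgeR, unadjusted p = 0.0227, adjusted p = 0.565). Over the alternative fits this term ran from -1.44 to -0.65, with no call. In knockout mice Socs2 differed by 0.52 ± 0.43 in the small intestine (edgeR adjusted p = 0.739), with 18, 45.2, 66.6, 52.7 and 62.3 CPM after LPS and 30.5, 47.0, 47.6 and 11.1 CPM after PBS.

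Socs3 values with LPS and PBS overlapped in every region and genotype at 24 h. Wild-type LPS mice held 119, 115, 315 and 316 CPM in the small intestine, where PBS libraries ranged from 40.3 to 288 CPM (median 141), and the difference was 0.59 ± 0.59 (edgeR adjusted p = 0.618). In the wild-type colon 191, 149, 147, 466 and 103 CPM stood against 229, 81.1, 62.3 and 85.7 CPM, a difference of 0.89 ± 0.63 (edgeR adjusted p = 0.402). Cish differed by -0.06 ± 1.07 in the wild-type small intestine (edgeR adjusted p = 0.987), with LPS values of 11.8, 49.3, 8.46 and 19.8 CPM inside the PBS range of 3.12 to 52.2 CPM (median 23.4). Socs1 held 25.9, 19.1, 16.7 and 20.3 CPM with LPS in the wild-type small intestine, against 2.00 to 21.3 CPM (median 6.13) with PBS, a difference of 1.36 ± 0.59 (edgeR adjusted p = 0.166). Its highest PBS value belonged to mouse 14, and without that library the difference was 2.02 and passed (edgeR adjusted p = 0.0352). In the wild-type colon Socs1 held 13.1, 6.71, 6.60, 8.19 and 26.4 CPM with LPS against 5.94, 15.9, 14.3 and 7.04 CPM with PBS, a difference of 0.18 ± 0.62 (edgeR adjusted p = 0.896). Cish there held 13.5, 5.63, 23.1, 0 and 24.7 CPM against 6.18, 9.08, 10.0 and 7.04 CPM, a difference of 0.72 ± 1.13 (edgeR adjusted p = 0.743). Both genes overlapped between the treatments.

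In knockout mice the 4 SOCS genes showed no call at 24 h, and LPS and PBS values overlapped for each. Socs3 held 489, 281, 103, 68.1 and 245 CPM with LPS in the small intestine (mice 11, 17, 10, 6 and 21) against 244, 387, 58.1 and 117 CPM with PBS, a difference of 0.24 ± 0.62 (edgeR adjusted p = 0.954). In the colon it held 238, 184, 123 and 116 CPM against 124, 143, 460, 44.3 and 150 CPM, a difference of -0.16 ± 0.62 (edgeR adjusted p = 0.959). The highest Socs3 value of the knockout colon was thus that of PBS mouse 1. Differences for Socs1 were 0.52 ± 0.63 and 0.45 ± 0.62 in the small intestine and colon, and for Cish 0.10 ± 1.11 and -0.26 ± 1.12 (edgeR adjusted p between 0.838 and 0.992). Socs2 of the knockout colon differed by -0.08 ± 0.42 (edgeR adjusted p = 0.972).

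**Figure D5:**
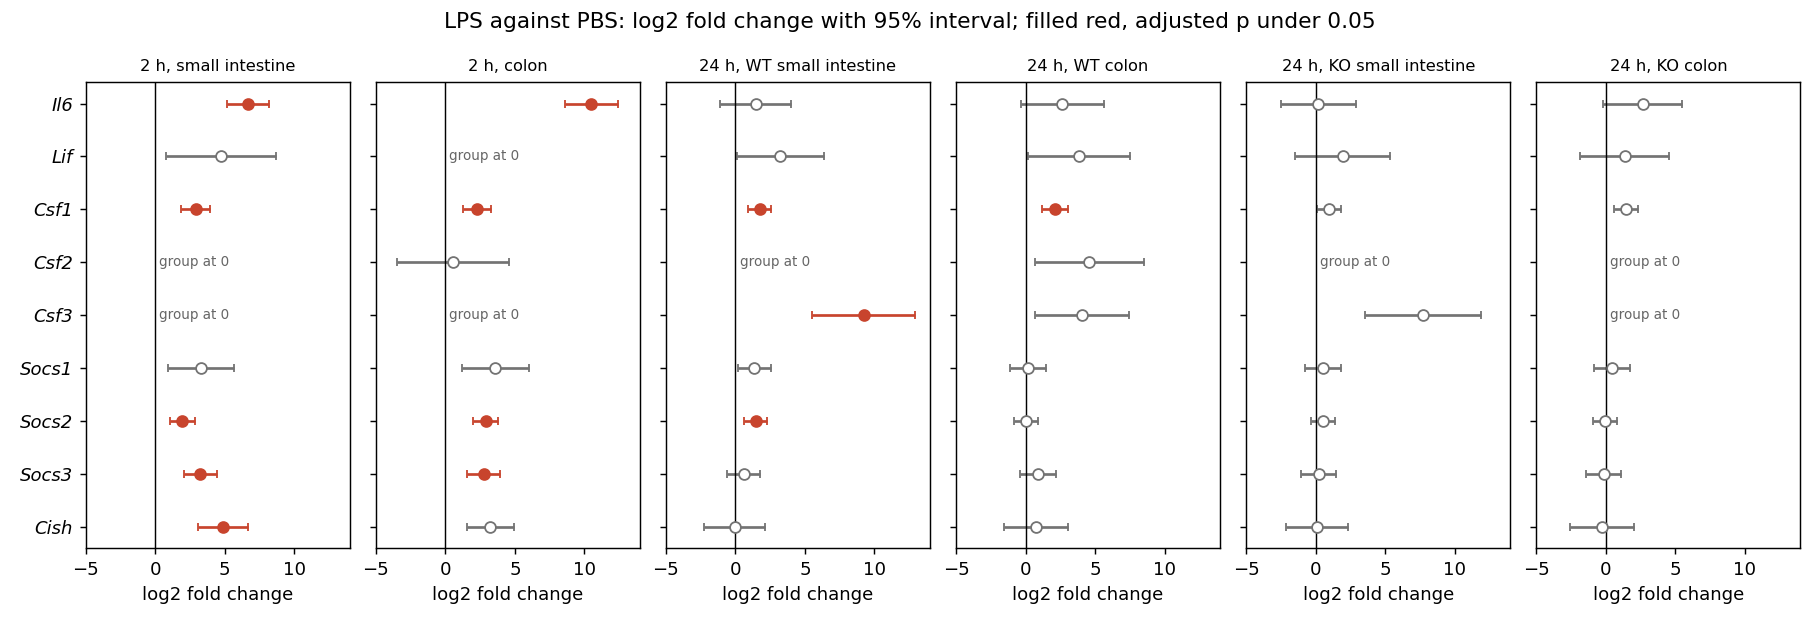
Fitted log2 fold changes of LPS against PBS with 95% confidence intervals for the genes of each comparison at 2 h and 24 h, filled where the edgeR adjusted p is below 0.05, and "group at 0" where a compared group held no count. Socs3 stands at 3.25 and 2.75 at 2 h and at 0.59 and 0.89 in wild-type mice at 24 h, whereas Csf1 lies above 0 in each comparison and Il6 of the colon at 2 h is fitted from 3 PBS counts.

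Knockout and wild-type mice were compared directly under each treatment. With LPS none of the 10 genes was called in edgeR in either region, where 0.0134% of all genes were called in either direction in the small intestine and 0.429% were in the colon. Socs2 in the small intestine was lower in the knockout by 1.05 on the log2 scale before adjustment (-1.05 ± 0.42, unadjusted p = 0.0174, adjusted p = 0.523 in edgeR), and was the only one of the 10 there with an unadjusted p below 0.05. In the colon 1 of the 10, Csf2, had one. Over all genes with LPS, 7.63% had an unadjusted p below 0.05 for the small intestine, and 16.4% for the colon. Csf3 differed by -1.58 ± 1.41 for the small intestine and -1.29 ± 1.45 for the colon (edgeR adjusted p = 0.885 and 0.695), intervals wide enough to hold no difference and several-fold differences alike. Csf1 differed by -0.39 ± 0.42 and -0.85 ± 0.43 (edgeR adjusted p = 0.922 and 0.318). With PBS edgeR called no member for either region, and none of all 14903 genes. Unadjusted p values below 0.05 with PBS were held by 4.22% of all genes for the colon and 1.72% for the small intestine. Among the 10, Csf3 in the colon had the lowest unadjusted p (0.00229). There the knockout was at 0 and the wild-type counts came from mouse 14. DESeq2 called 1 of the 10 in the colon with PBS and none with LPS, and its totals over all genes are not given here. The wild-type LPS groups here include the 4 libraries with at most 3 Gpr37 counts.

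The difference in the LPS response between genotypes, tested as an interaction, was not called for any of the 10 genes by edgeR in either region. None had an unadjusted p below 0.05 in the small intestine, 1 had in the colon, and DESeq2 called 0 and 1. The all-gene totals of DESeq2 for these terms are not given here. For Csf1 the term was -0.76 ± 0.58 for the small intestine and -0.68 ± 0.60 for the colon (edgeR adjusted p = 1.00 and 0.675). So the wild-type calls of Csf1, Csf3 and Socs2 that were missed in knockout mice are not shown to differ between the genotypes. Csf3 in the colon had an unadjusted p of 0.0239 (edgeR adjusted p = 0.294), again with the knockout PBS group at 0 and mouse 14 holding the wild-type PBS counts. Csf3 also had the lowest unadjusted p of the region by treatment terms in wild-type mice, at -5.16 ± 2.10 (edgeR, unadjusted p = 0.0204, adjusted p = 0.547). Without the colon library of mouse 14 that PBS group is at 0, and counts then set neither the sign nor the size of the term. Over all genes, edgeR called none in the genotype by treatment terms, with 578 genes below an unadjusted p of 0.05 in the small intestine, and 2009 for the colon.

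Of the wider pathway, STAT3-responsive genes were called in every LPS comparison at 24 h. The shares of all genes called higher were 4.18% and 3.96% in the small intestine and colon of wild-type mice and 0.530% and 0.637% in those of knockout mice, and the counts below stand against them. In the wild-type small intestine 8 of 12 were higher, among them Lcn2 (9.00 ± 1.12, adjusted p = 2.51e-06) and Timp1, an inhibitor of matrix proteases (4.65 ± 0.54, adjusted p = 7.37e-07), and in the wild-type colon 6 of 12 were, with Timp1 at 3.40 ± 0.59 (adjusted p = 0.000543; all edgeR). The knockout gave 3 of 12 for the small intestine and 4 of 12 for the colon, with Timp1 at 3.31 ± 0.59 and 2.81 ± 0.54 (edgeR adjusted p = 0.00286 and 0.00732). Stat3 itself rose by 1.44 ± 0.19 in the wild-type small intestine, 1.00 ± 0.21 in the wild-type colon and 0.86 ± 0.20 in the knockout colon (edgeR adjusted p = 8.12e-06, 0.00308 and 0.0292). Ptpn2 rose in wild-type mice by 1.97 ± 0.35 and 2.14 ± 0.39 in the small intestine and colon (edgeR adjusted p = 0.000325 and 0.000787). Of 8 IL-6 family receptor genes, Il11ra1, the receptor chain of Il11, fell by 1.09 in the wild-type colon (edgeR adjusted p = 0.0158), and no other was called there. None of these lists held a gene called between genotypes in edgeR. Lcn2 and Saa3 are also expressed by neutrophils, whose markers moved with LPS as given above.

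Across the 37 libraries of 24 h, log2 CPM of Il6 tracked Ier3 (Pearson r = 0.821), Sertad1 (0.806) and Fosl1 (0.739) most closely. Socs3 tracked Junb (0.857), Zfp36 (0.842) and Egr1 (0.837), and Lif Tbcc (0.630), Brpf1 (0.624) and Abhd15 (0.617). Egr1 was thus among the 3 genes most like Socs3 at both times.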

How the data were processed

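The values used are the raw counts that the authors deposited, as whole numbers by gene symbol and library in 2 tables. They come from RNA extracted with a low-input kit and amplified by Smart-seq2 without molecular identifiers, per the labels' protocols. The submitters' processing notes name Trim Galore 0.4.4, STAR 2.5.3, DESeq2 and GRCm38; the counter, the annotation and the use of strand are not given in the sources used here. PCR copies cannot be told from molecules, so intervals on counts cover counting error only.

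Groups came from the labels. Counts were filtered by filterByExpr (13107 genes at 2 h, 14903 at 24 h), scaled by TMM and fitted with edgeR 4.0.16 (R 4.3.3) by quasi-likelihood, with 1 fit per experiment, no covariates and 15 two-sided contrasts, at a Benjamini-Hochberg adjusted p threshold of 0.05. Untreated libraries are described without a test. The p values measure the spread between the libraries of a group, which at 24 h are separate mice; for the other libraries the labels give no mouse. DESeq2 1.42.0, size factors, no filter, sex, the compared groups alone, replicate or mouse blocks, mice numbered 11 and above, the mouse numbering as a covariate and leaving out each library were alternatives; leaving out both libraries of mouse 3 was chosen after seeing the data. Mouse numbers are those of the labels, 1 of them (knockout PBS mouse 7, small intestine) read from the sample description because its mouse field gave none. The colon and small intestinal libraries of a mouse at 24 h pair by these numbers: their deviations from the group means correlated at a mean r of 0.121 (10 of 15 pairs above 0.1), and the mouse block, run for the region by treatment terms, made no call, as without it.

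A floor of 3 counts per library bounds folds against groups at 0. Positions are from GENCODE on GRCm38, exonic lengths from the same annotation, and promoter windows from RefSeq on GRCm38.p6. The rule named all 10 members and of each other list at most the 3 called genes with the largest fold. The fits were tested on simulated data. The members and lists were chosen with earlier results of these data known. At 24 h, 25 symbols of the deposited counts read as dates and were not assigned to genes. One marker gene is not reported here.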

Additional observations from a re-analysis of the deposited data

Results flagged for a closer look

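Within groups of 4 to 6 libraries, 93 sets of values were searched for a single library set apart from the others by most of the group's range, and 6 were found, where chance gives about 1 in 20. At 2 h in the small intestine with LPS, replicate 2 held 2.01 CPM of Csf3 against 45.4 to 70.1 CPM in the others, and replicate 3 held 1278 CPM of Socs3 against 806 to 862 CPM. At 2 h in the colon with LPS, replicate 4 held 24.9 CPM of Cish against 78.9 to 96.3 CPM. At 24 h, Socs2 in the colon of LPS mouse 5, labelled wild type and without a Gpr37 count, was 12.3 CPM against 49.1 to 59.9 CPM. In the knockout PBS colon, mouse 7 held 25.2 CPM of Csf1 against 55.3 to 74.4 CPM, and mouse 1 held 0 CPM of Cish against 6.15 to 14.2 CPM.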

How the results depend on the processing

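The counts below stand without the numbers of all genes called in the same fits, so a move particular to these genes is not shown. The number of the 10 genes called moved by more than 1.5 times, the cause not tested, as follows. For LPS against PBS at 2 h in the colon (5 in edgeR), DESeq2 gave 8 and the colon libraries alone 3. For LPS at 24 h in the wild-type colon (1), sex as a covariate gave 2 and the compared groups alone 0; in the knockout small intestine (0), DESeq2, sex as a covariate and mice numbered 11 and above each gave 1; in the knockout colon (1), DESeq2 gave 2, and the compared groups alone and the replicate block 0. DESeq2 gave 1 in place of 0 for knockout against wild type with PBS in the colon, for genotype by treatment in the colon and for region by treatment in knockout mice. With 1 library left out, the counts ran from 4 to 5 and from 2 to 5 at 2 h in the small intestine and colon, from 2 to 4 and from 1 to 2 in the wild-type small intestine and colon at 24 h, from 0 to 1 in both knockout regions, and stayed at 0 in the other comparisons.

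Replicate numbers do not pair the 2 h libraries (mean r of 0.0602 between equal numbers, -0.02 between others). With the replicate block 5 genes were called in the small intestine at 2 h, gaining Csf2 (adjusted p = 0.0492) and losing Csf3 (0.132) and Socs2 (0.0553), and 4 in the colon, losing Csf3 (0.168). At 24 h, where equal title numbers are different mice in the LPS and PBS groups of a region, Csf3 in the knockout colon had an adjusted p of 0.0779 and no other call changed in these LPS comparisons. Both libraries of mouse 3 left out changed no call: in the wild-type small intestine Csf1 rose by 1.83 and Csf3 by 9.14, and Csf1 in the colon by 2.35 on the log2 scale. The Csf3 region by treatment term of wild-type mice ran from -10.3 to 4.07 with 1 library left out and reversed without the colon library of mouse 14, which leaves a PBS group at 0, so that this sign is not set by counts. In mice numbered 11 and above, the knockout colon kept a count of 1 but with Csf1 in place of Csf3 (adjusted p = 0.163). In the PBS libraries at 2 h, 3 counts correspond to 0.359 to 1.46 CPM, which limits how low Lif, Il11, Csf2 and Csf3 can be measured there.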
